A study of Mus musculus with 4 samples.

Results

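The genes described are the 3 Aurora kinases (Aurka, Aurkb, Aurkc), 3 chromosomal passengers (Incenp, Birc5, Cdca8) and 4 spindle assembly factors (Tpx2, Tacc3, Ckap5, Numa1). They were picked by name, and all 10 were found once among the 23309 gene symbols of the deposited tables. All 10 were also among the 9990 genes that averaged at least 1 FPKM over the libraries. FPKM counts sequenced fragments relative to the length of the transcript and to all mapped fragments. It can therefore be set side by side between genes. It is a share of a library and not an amount per oocyte, so higher and lower below refer to that share.

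The libraries came from ICR mouse oocytes of 4 kinds: labelled Erk-/- at MII, wild type at MII, Erk-/- at GV and wild type at GV, with 1 library each. GV (germinal vesicle) oocytes are fully grown and still in meiotic prophase, and MII oocytes are mature eggs held at metaphase of the second meiotic division. Per the labels' protocols, 60 cells were lysed for each library, from females 21 to 23 days old given PMSG/hCG, hormones given to stimulate follicles and ovulation. The same protocol text names Btg4-/- females, so genotype was taken from each sample's own genotype label, and neither the deleted exons nor any Cre driver is given in the sources used here. With 1 library a group no test can be run, and each difference below is between single libraries.

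Mouse oocytes build their meiotic spindle without centrioles, from many small microtubule-organising centres and from the chromosomes themselves. Aurora A, switched on by TPX2, works at spindle poles. Aurora B and Aurora C bind INCENP, survivin (Birc5) and borealin (Cdca8) to form the chromosomal passenger complex, which corrects wrong attachments between chromosomes and microtubules. Aurora C is largely a germ cell kinase. A full-grown oocyte makes almost no new mRNA and relies on stored mRNAs.

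The 3′ ends of these mRNAs are shown because stored oocyte mRNAs are commonly woken through a cytoplasmic polyadenylation element (CPE) near the polyadenylation signal. In GENCODE M21 transcripts (GRCm38), the last 100 bases of each 3′ UTR were searched on the sense strand for a CPE (TTTTAT or TTTTAAT) and a signal (AATAAA or ATTAAA). Capitals mark these motifs. The windows lie at chr2:172356237-172356266 (minus strand) for Aurka, chr11:69051619-69051648 (plus) for Aurkb, chr7:7003045-7003074 (plus) for Aurkc, chr2:91620629-91620658 (plus) for Ckap5, chr4:124918478-124918507 (minus) for Cdca8 and chr11:117855698-117855727 (plus) for Birc5.
Aurka: ttaaaggctattTTTTATgttggagttctg
Aurkb: agaacaacaTTTTATAATAAAgtcttaaat
Aurkc: ctcTTTTATgaagtgatgttaATTAAAact
Ckap5: taagagacTTTTATaAATAAAgtttgcatt
Cdca8: cttgctgttttcAATAAAtcttagtttgcc
Birc5: acggggtaacggAATAAAatcacttgaaaa
All 3 Aurora kinases and Ckap5 held a CPE in this window, 4 of the 10 genes, against 17.8% of 19534 genes with a window of that length. In Aurkb the CPE runs straight into the signal. A signal was found in 8 of the 10, against 78.2% of all, and in neither Aurka nor Tacc3. Tpx2 had 2 CPEs, both further upstream in its 1630-base 3′ UTR. These are matches of letters in an annotated end, and the ends used in these oocytes were not measured.

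The targeted gene and the identity of the cells were examined first. Mapk3, which encodes ERK1, had 34.3 FPKM in the MII library labelled Erk-/-, 25.7 in wild-type MII, 52.3 in Erk-/- GV and 333 in wild-type GV. It was therefore lower under the Erk-/- label at GV and not at MII. The wild-type level itself went from 333 FPKM at GV to 25.7 at MII, so the MII comparison cannot settle the genotype. FPKM per gene also cannot show which exons were deleted. The MII library is called "labelled Erk-/-" throughout. Summed FPKM ran from 401160 to 453226 over the libraries. Among genes averaging at least 1 FPKM, 1881 were listed at 0 in wild-type MII. The number was 733 in the MII library labelled Erk-/-, 1101 in Erk-/- GV and 886 in wild-type GV. Genes at 10 FPKM or more numbered 3570 in wild-type MII, and 4397 to 5682 in the other libraries. Whether a 0 or lowest level there (Nusap1, Clip1, Haus8, Fzr1 and Pak1 below) is particular to the gene was not tested. All 11 oocyte markers were above 1 FPKM in each library, with a summed level of 11097 to 16878 FPKM. Of 15 granulosa and cumulus cell markers 10 to 12 were listed at 0, Fshr, Foxl2 and Amh in all libraries, and their sum was 13.1 to 29.4 FPKM. 3 markers of the list passed 10 FPKM in a library. Cyp19a1 had 10.8 FPKM in the MII library labelled Erk-/-, 21.8 in wild-type MII, 0 in Erk-/- GV and 15.5 in wild-type GV. Nr5a2 reached 17.0 FPKM in Erk-/- GV, against 6.84 in wild-type GV, and Inha had its highest level, 11.3 FPKM, in Erk-/- GV. Their part in the results was not tested. Of 9 markers of other ovarian and blood cells 6 to 8 were listed at 0, among them Ptprc and Col1a1 in all libraries, and Pecam1 made up most of the sum of 27.1 to 71.1 FPKM. In such bulk samples, fewer cells of a type and less RNA per cell cannot be told apart.

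Together the 10 mRNAs took nearly the same share of each library, while the order among them changed with stage. Their summed level was 1627 FPKM in the MII library labelled Erk-/-, 1548 in wild-type MII, 1641 in Erk-/- GV and 1696 in wild-type GV, which is 0.393%, 0.386%, 0.390% and 0.374% of all FPKM. Different genes carried most of this sum: Birc5 (594 FPKM) and Tacc3 (545) in wild-type GV, Aurkc (669) and Cdca8 (299.6) in wild-type MII. The median level of the 10 was less even, at 82.1, 93.3, 56.1 and 76.0 FPKM in the order of the sums. Birc5 had the highest level of the 10 in the MII library labelled Erk-/- and in both GV libraries, and Aurkc in wild-type MII. Aurkb was the lowest of the 10 in all 4 libraries.

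**Figure D1:**
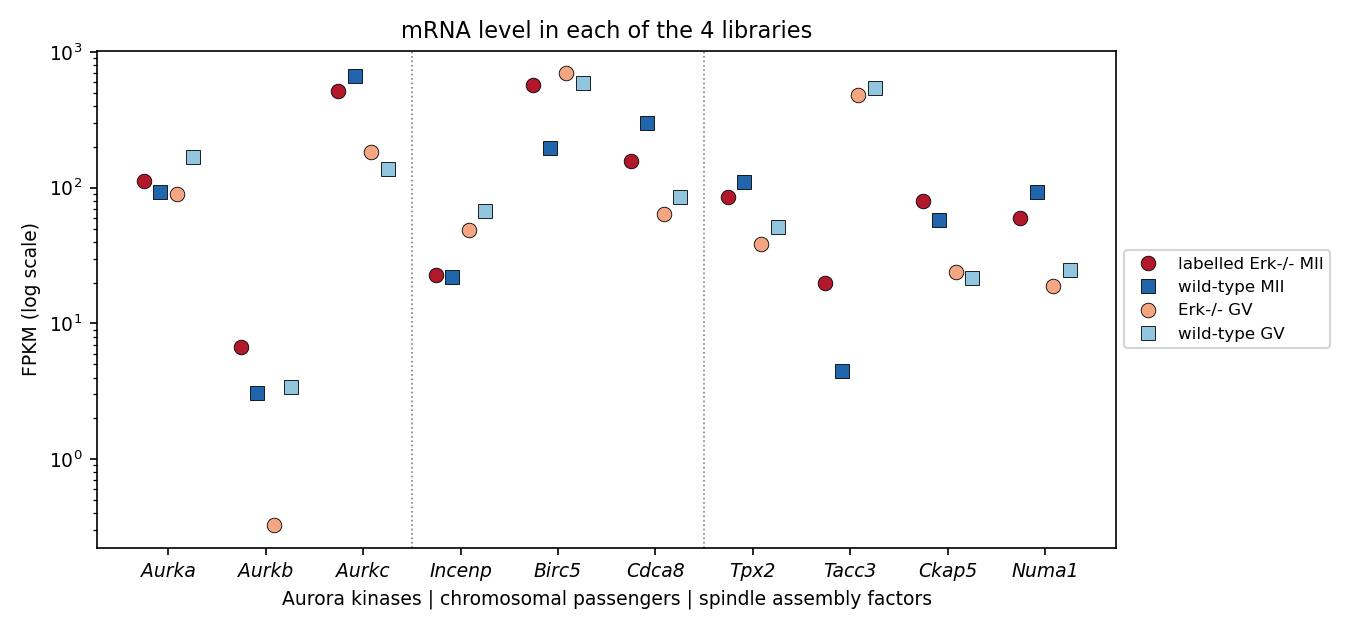
FPKM of each gene (vertical axis, log scale) in the 4 libraries, 1 point per library with no replicate error. Aurkc and Cdca8 are highest in wild-type MII at 669 and 299.6 FPKM, Birc5 in Erk-/- GV at 695 FPKM and Tacc3 in wild-type GV at 545 FPKM.

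Among the kinases, Aurkc mRNA was several times higher in FPKM at MII than at GV under either genotype label. It took most of the Aurora total at MII. Aurkc (mm9 chromosome 7, 6948096 to 6955802) had 515 FPKM in the MII library labelled Erk-/-, 669 in wild-type MII, 184 in Erk-/- GV and 137 in wild-type GV. Both MII libraries lay above both GV libraries. The authors' bounds were 496 to 536, 654 to 695, 173 to 195 and 130 to 146 FPKM in the same libraries and did not overlap. The MII level was 2.80-fold the GV level in the libraries labelled Erk-/- and 4.87-fold in wild type. Of the stretches of 50 bases in the Aurkc mRNA, 74.2% also occur in annotated pseudogenes, 10 in all and Gm12463 alone with 61.3%, and none of these has a row in the deposited tables. How fragments matching several places were counted is not given in the sources used here, so the Aurkc level may include or lack such fragments.

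Aurka, the pole kinase, did not follow Aurkc. Aurka (chromosome 2, 172181696 to 172196006) had 112 FPKM in the MII library labelled Erk-/-, 93.4 in wild-type MII, 89.1 in Erk-/- GV and 167 in wild-type GV. On the deposited scale the wild-type GV library stood above the other three. Neither maturation ratio reached 2-fold: MII was 125% of GV in the libraries labelled Erk-/- and 55.8% in wild type. The wild-type log2 ratio of -0.84 became -0.02 with median-of-ratios scaling and 0.03 with upper-quartile scaling, so a lower Aurka level in wild-type MII depends on the scale. No stretch of 50 bases of Aurka or Aurkb occurs in another annotated gene.

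Aurkb, the passenger kinase of dividing somatic cells, was scarce. Aurkb (chromosome 11, 68859145 to 68865164) had 6.72 FPKM in the MII library labelled Erk-/- (5.25 to 8.02), 3.06 in wild-type MII (2.21 to 3.87), 0.327 in Erk-/- GV (0.0595 to 0.535) and 3.41 in wild-type GV (2.50 to 4.31). The Erk-/- GV library was low and the wild-type libraries of either stage had overlapping bounds. Aurkc exceeded Aurkb 76.6-fold in the MII library labelled Erk-/-, 218-fold in wild-type MII, 563-fold in Erk-/- GV and 40.3-fold in wild-type GV. Since the added 1 shrinks ratios of low genes, the 20.6-fold ratio of Aurkb between MII and GV in the libraries labelled Erk-/- came out as a log2 ratio of 2.54.

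As shares of the summed level of the 3 kinases, Aurkc made up 81.3% in the MII library labelled Erk-/- and 87.4% in wild-type MII, against 67.3% in Erk-/- GV and 44.6% in wild-type GV. Aurka took 17.6% and 12.2% at MII, in the same order of genotypes, and 32.6% and 54.3% at GV. Aurka was the most abundant kinase mRNA in wild-type GV alone. The Aurora sum was 633 and 766 FPKM in the labelled Erk-/- and wild-type MII libraries, against 273 and 308 FPKM in Erk-/- and wild-type GV.

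**Figure D2:**
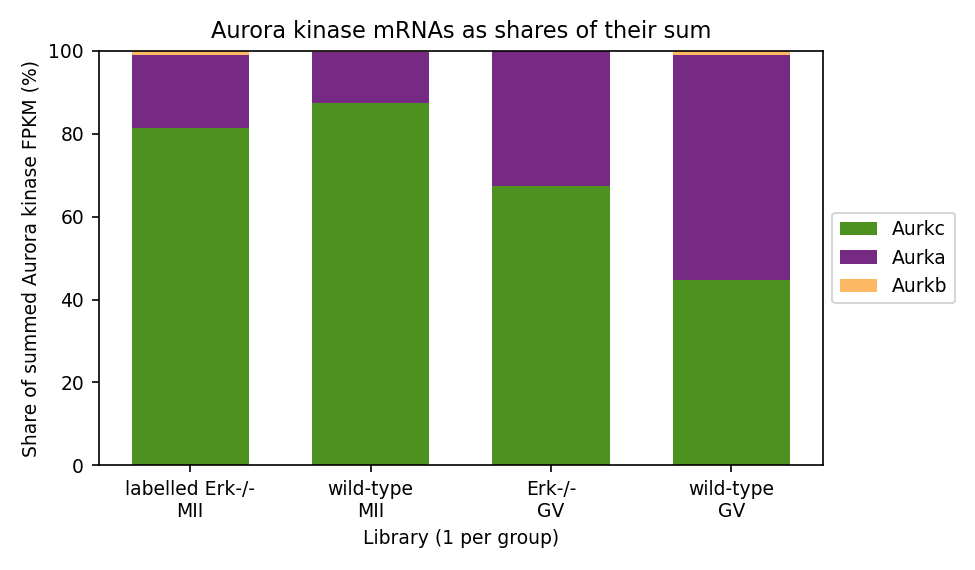
Share of each kinase in the summed Aurora FPKM of a library (percent, bars stacked from 0), 1 library per bar. Aurkc takes 81.3% and 87.4% in the MII bars and 67.3% and 44.6% in the GV bars, and Aurkb at most 1.11%.

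The non-kinase passengers parted company, although their proteins work in one complex. Incenp, the scaffold that activates Aurora B and C (chromosome 19, 9946787 to 9974023), had 22.8 FPKM in the MII library labelled Erk-/-, 21.9 in wild-type MII, 48.7 in Erk-/- GV and 66.8 in wild-type GV. It was lower at MII under either label, and the MII libraries had overlapping bounds (20.3 to 24.7 and 19.6 to 23.8). The GV level exceeded the MII level 2.14-fold in the libraries labelled Erk-/- and 3.04-fold in wild type. AC132253.8 overlaps Incenp on the same strand.

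Cdca8, which encodes borealin, the part that helps dock the complex on centromeres (chromosome 4, 124595709 to 124614161), went the other way. It had 158 FPKM in the MII library labelled Erk-/-, 299.6 in wild-type MII, 63.6 in Erk-/- GV and 85.2 in wild-type GV. Both MII levels lay above both GV levels, by 2.49-fold in the libraries labelled Erk-/- and 3.52-fold in wild type. A gene on the opposite strand, 9930104L06Rik, overlaps Cdca8, and whether the libraries kept strand is not stated.

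Birc5, which encodes survivin, the subunit that reads the haspin mark on chromatin (chromosome 11, 117710551 to 117717057), had 569.9 FPKM in the MII library labelled Erk-/- (554 to 595), 197 in wild-type MII (186 to 208), 695 in Erk-/- GV (673 to 726) and 594 in wild-type GV (578 to 620). Wild-type MII stood alone as the low library. MII was 82.0% of GV in the libraries labelled Erk-/- and 33.1% in wild type. Birc5 mRNA exceeded Incenp mRNA 25.0-fold in the MII library labelled Erk-/-, 8.96-fold in wild-type MII, 14.3-fold in Erk-/- GV and 8.89-fold in wild-type GV. Against Cdca8, the ratio was 3.60 in the MII library labelled Erk-/- and 0.656 in wild-type MII, so borealin mRNA was above survivin mRNA in wild-type MII alone.

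The spindle assembly factors split into 1 that was far lower at MII and 3 that were higher. Tacc3, which holds microtubule bundles together with clathrin and chTOG (chromosome 5, 34000796 to 34014846), had 19.7 FPKM in the MII library labelled Erk-/- (17.2 to 21.3), 4.49 in wild-type MII (3.59 to 5.37), 479.8 in Erk-/- GV and 545 in wild-type GV. The GV libraries were close and the MII libraries were low, wild-type MII the lowest. The GV level exceeded the MII level 24.3-fold in the libraries labelled Erk-/- and 121-fold in wild type. On the log2 scale these ratios were lower than all but 1.03% and 0.521% of the 9990 genes. Tmem129 overlaps Tacc3 on the opposite strand.

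Ckap5, which encodes chTOG, the microtubule polymerase that TACC3 recruits (chromosome 2, 91386479 to 91460822), had 79.4 FPKM in the MII library labelled Erk-/- (76.6 to 82.8), 57.5 in wild-type MII (55.4 to 60.1), 23.8 in Erk-/- GV (22.2 to 25.4) and 21.5 in wild-type GV (20.2 to 22.9). MII was 3.34-fold GV in the libraries labelled Erk-/- and 2.67-fold in wild type. Snord67 overlaps Ckap5 on the same strand. The partners therefore changed places: Ckap5 was 4.02-fold above Tacc3 in the MII library labelled Erk-/- and 12.8-fold in wild-type MII, while Tacc3 was 20.2-fold above Ckap5 in Erk-/- GV and 25.3-fold in wild-type GV.

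Tpx2, the Aurora A activator released from importins near chromosomes (chromosome 2, 152673700 to 152721057), had 84.8 FPKM in the MII library labelled Erk-/-, 109 in wild-type MII, 38.2 in Erk-/- GV and 51.0 in wild-type GV. Numa1, which encodes the NuMA protein that gathers microtubule minus ends at poles with dynein (chromosome 7, 109118357 to 109163473), had 59.4, 93.2, 18.9 and 24.7 FPKM in the same libraries. Both genes were higher at MII under either label and lower under the Erk-/- label at either stage. MII exceeded GV 2.22-fold for Tpx2 and 3.15-fold for Numa1 in the libraries labelled Erk-/-, and 2.14-fold and 3.77-fold in wild type. Mir5622 overlaps Tpx2 on the same strand. Il18bp and 3 predicted genes overlap Numa1 on the opposite strand.

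Counted by a rule of size, a ratio of at least 2-fold on the log2(FPKM + 1) scale, 6 of the 10 genes had the higher level at MII among libraries labelled Erk-/- (Aurkb, Aurkc, Cdca8, Tpx2, Ckap5, Numa1) and 2 were lower (Incenp, Tacc3). Of all 9990 genes, 22.9% were higher and 35.6% lower in that comparison. In wild type 5 were higher (Aurkc, Cdca8, Tpx2, Ckap5, Numa1) and 3 lower (Incenp, Birc5, Tacc3), against 20.6% and 49.6% of all genes. The median log2 ratio of the 10 was 1.22 in the libraries labelled Erk-/- and 0.48 in wild type, against -0.26 and -0.97 over all genes. Under median-of-ratios scaling the all-gene median shifted by 0.18 in the libraries labelled Erk-/- and by 0.67 in wild type. With that scaling 6 genes were higher and 1 lower (Tacc3) in the libraries labelled Erk-/-, and 5 higher and 1 lower (Tacc3) in wild type, so the lower calls of Incenp and Birc5 depend on the scaling.

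**Figure D3:**
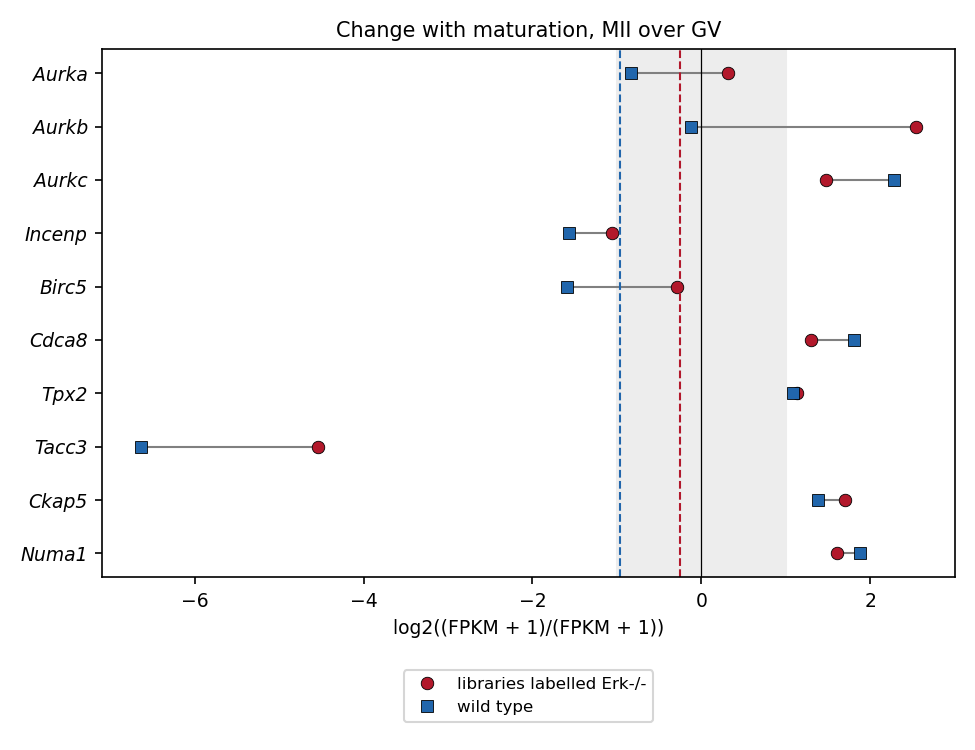
Log2 ratio (horizontal axis) of MII over GV on the log2(FPKM + 1) scale for each gene in the libraries labelled Erk-/- (circles) and in wild type (squares). Grey shading spans less than 2-fold and dashed lines are the medians of all 9990 genes, -0.26 and -0.97. Aurkc, Cdca8, Tpx2, Ckap5 and Numa1 lie right of the shading in both, and Tacc3 far left of it at -4.53 and -6.63.

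The series concerns degradation of maternal mRNA in oocytes lacking ERK, which the genotype labels at MII address. A limit is that Mapk3 was not lower there, a comparison that cannot settle the genotype of that library. Tacc3 was 4.39-fold and Birc5 2.90-fold higher in the MII library labelled Erk-/- than in wild-type MII, and none of the 10 was at least 2-fold lower. Aurkb, at a plain ratio of 2.19, came to 0.93 on the log2(FPKM + 1) scale and was not counted. Of the 9990 genes, 31.4% had a higher and 7.43% a lower level in this comparison, so 2 of 10 is no more than that share. This comparison and the wild-type maturation ratio share the single wild-type MII library, so no match between them is drawn. Incenp had nearly equal levels in the MII libraries. Cdca8 stood at 52.8% of the wild-type MII level, Numa1 at 63.7%, Aurkc at 76.9%, Tpx2 at 77.6% and Ckap5 at 138%. With median-of-ratios scaling, which shifted the all-gene median by -0.31, 1 gene was higher (Tacc3, log2 ratio 1.46) and 2 were lower (Cdca8, -1.45, and Numa1, -1.17), and Birc5 came to 0.999.

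At GV, of the 10 genes only Aurkb was past 2-fold, at 0.327 FPKM in Erk-/- GV against 3.41 in wild-type GV, and none was at least 2-fold higher. Of all genes 22.9% were lower and 18.4% higher there. Among the 5294 genes averaging at least 10 FPKM, a class that 9 of the 10 belong to and Aurkb does not, 27.1% were 2-fold apart in either direction. Aurka was the next lowest ratio, at 53.2% of the wild-type level, and Aurkc had the highest at 134%. Tacc3 (88.1%), Ckap5 (111%) and Birc5 (117%) were the nearest to equal levels.

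**Figure D4:**
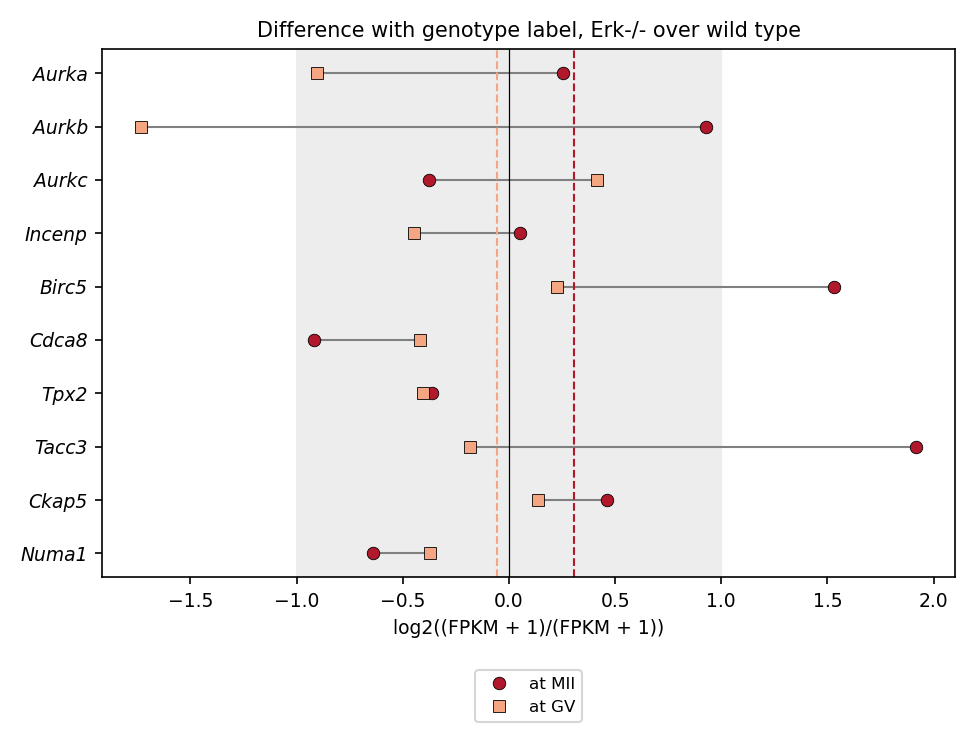
Log2 ratio (horizontal axis) of the Erk-/- label over wild type at MII (circles) and at GV (squares) on the log2(FPKM + 1) scale. Grey shading spans less than 2-fold and dashed lines are the medians of all 9990 genes, 0.31 at MII and -0.06 at GV. Tacc3 (1.92) and Birc5 (1.53) lie beyond the shading at MII, and Aurkb (-1.73) at GV.

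Subtracting the wild-type maturation ratio (MII over GV) from the one under the Erk-/- label joins all 4 libraries in 1 value per gene. The difference was at least 2-fold positive for Aurkb (log2 difference 2.66), Tacc3 (2.10), Birc5 (1.30) and Aurka (1.16), and was at least 2-fold negative for none. Over all genes 41.2% were positive and 18.8% negative by that rule, so 4 of 10 is close to the share of all genes. It was -0.79 for Aurkc, -0.50 for Cdca8, -0.27 for Numa1, 0.50 for Incenp, 0.32 for Ckap5 and 0.04 for Tpx2. The median of the 10 was 0.41, against 0.59 over all genes. Under median-of-ratios scaling the all-gene median shifted by -0.49, leaving 2 positive (Aurkb, 2.01, and Tacc3, 1.55) and 2 negative (Aurkc, -1.42, and Cdca8, -1.12). Incenp, Ckap5 and Tpx2 then had values below 0.

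The genes most like each kinase in pattern were sought by the distance between centred log2(FPKM + 1) values over the 4 libraries, with 1 value a group. The search took in genes averaging at least 10 FPKM that were found once in the files and whose symbols neither begin with Gm or mt- nor end in Rik, 5037 for Aurkb and 5036 for each other kinase. For Aurkc they were Med20 (distance 0.0457), Glce (0.113) and Mzt1 (0.125). Mzt1, which encodes a small subunit of the γ-tubulin complex, had 17.0 FPKM in the MII library labelled Erk-/-, 24.7 in wild-type MII, 5.93 in Erk-/- GV and 4.40 in wild-type GV. For Aurka they were Mfap1a (0.0930), Bscl2 (0.129) and Musk (0.150), and for Aurkb Tmco1 (0.290), Tmem48 (0.304) and Uqcr11 (0.429).

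Other genes of the pathway were taken from 6 lists of regulators and partners, 82 genes without the 10, of which 75 averaged at least 1 FPKM. Between MII and GV, 14 of the 75 stood higher and 25 lower under the Erk-/- label, against 15 and 39 in wild type, where median-of-ratios scaling gave 23 and 30. As shares these were 18.7% and 33.3% under the Erk-/- label, against 22.9% and 35.6% of all genes, and 20% and 52% in wild type, against 20.6% and 49.6% of all genes. With that scaling the counts under the Erk-/- label were 14 and 21. Their medians of -0.31 and -1.05 stood close to those of all genes, -0.26 and -0.97.

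Of 9 regulators of Aurora A, 3 were higher and 2 lower at MII under the Erk-/- label, and 2 higher and 5 lower in wild type (2 and 4 with median-of-ratios scaling). The lower genes were 22.2% of the list under the Erk-/- label, against 35.6% of all genes, and 55.6% in wild type, against 49.6%. The higher genes were 33.3% under the Erk-/- label, against 22.9% of all genes, and 22.2% in wild type, against 20.6%. Fzr1, which encodes the adaptor that hands Aurora A to the anaphase-promoting complex for destruction, had 47.5 FPKM in the MII library labelled Erk-/-, 11.1 in wild-type MII, 138 in Erk-/- GV and 146 in wild-type GV. Pak1, a kinase that can phosphorylate Aurora A, had 44.9, 5.77, 93.9 and 95.2 FPKM in these libraries. For both, GV levels were alike and wild-type MII was the lowest library. Ppp6c, the phosphatase of the Aurora A activation loop, was 4.15-fold higher in the MII library labelled Erk-/- (8.46 FPKM) than in wild-type MII (2.04 FPKM). At GV it was lower under the Erk-/- label, at 5.47 against 11.4 FPKM. Aurkaip1 had the largest ratio of the list between the MII libraries, 20.8 against 1.96 FPKM. Between the MII libraries 5 of the 9 were at least 2-fold higher under the Erk-/- label with none lower, or 1 lower with median-of-ratios scaling. Of all genes, 31.4% stood higher and 7.43% lower between those libraries. Plk1, the polo kinase that Aurora A activates, had 147 FPKM in the MII library labelled Erk-/-, 154 in wild-type MII, 182 in Erk-/- GV and 174 in wild-type GV, with no ratio past 2-fold.

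Genes that place the passenger complex or are its targets numbered 10, with 2 higher and 4 lower at MII under the Erk-/- label, and 4 higher and 2 lower in wild type (5 and 2 with median-of-ratios scaling). The lower genes were 40% of the list under the Erk-/- label, against 35.6% of all genes, and 20% in wild type, against 49.6%. The higher genes were 20% under the Erk-/- label, against 22.9% of all genes, and 40% in wild type, against 20.6%. The kinases that write the chromatin marks read by the complex were both lower at MII. Gsg2, which encodes haspin, had 3.11 FPKM in the MII library labelled Erk-/-, 3.14 in wild-type MII, 57.9 in Erk-/- GV and 34.9 in wild-type GV, and Bub1 had 5.03, 2.22, 17.1 and 35.6 FPKM. Ndc80, the microtubule-binding kinetochore protein that the Aurora kinases phosphorylate, had 63.1, 81.2, 23.3 and 12.2 FPKM, and the centromere guardian gene Sgol2 had 21.4, 20.1, 3.26 and 4.14 FPKM, both higher at MII. None of the 10 was 2-fold apart between the MII libraries on the log2(FPKM + 1) scale, and 3 were lower under the Erk-/- label with median-of-ratios scaling.

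The Ran and importin pathway, which frees TPX2 and other factors around chromosomes, had 6 of 9 genes at a lower level at MII and none at a higher one under the Erk-/- label, and 7 lower and 1 higher in wild type. Over all genes 35.6% were lower and 22.9% higher under the Erk-/- label, and 49.6% lower and 20.6% higher in wild type. With median-of-ratios scaling 4 of the 9 were lower under the Erk-/- label and 5 in wild type. Kpna2, the importin that holds TPX2, had 94.4 FPKM in the MII library labelled Erk-/-, 33.3 in wild-type MII, 491 in Erk-/- GV and 538 in wild-type GV. Nusap1, a Ran-regulated microtubule binder, had 12.5 FPKM in the MII library labelled Erk-/- and was listed at 0 in wild-type MII. It had 66.4 and 92.1 FPKM in Erk-/- and wild-type GV. Wild-type MII was also the library with the most genes listed at 0. Rcc1, the exchange factor that makes active Ran on chromatin, was the exception in wild type, at 59.9, 77.0, 37.2 and 12.2 FPKM in the same order of libraries.

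Genes of γ-tubulin complexes and augmin, which nucleate microtubules, numbered 17, with 3 higher and 5 lower at MII under the Erk-/- label, and 3 higher and 11 lower in wild type (4 and 9 with median-of-ratios scaling). The lower genes were 29.4% of the list under the Erk-/- label, against 35.6% of all genes, and 64.7% in wild type, against 49.6%. The higher genes were 17.6% under either label, against 22.9% of all genes under the Erk-/- label and 20.6% in wild type. The augmin gene Haus8 had 67.2 FPKM in the MII library labelled Erk-/-, 6.72 in wild-type MII, 93.3 in Erk-/- GV and 95.1 in wild-type GV. Nedd1, which anchors γ-tubulin complexes to the spindle, had 63.2, 73.1, 12.8 and 29.8 FPKM and was higher at MII under either label.

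Among genes of acentriolar organising centres and the spindle domain, 2 of 13 were higher and 4 lower at MII under the Erk-/- label, and 2 higher and 8 lower in wild type (4 and 4 with median-of-ratios scaling). The lower genes were 30.8% and 61.5% of the list, against 35.6% and 49.6% of all genes. The higher genes were 15.4% under either label, against 22.9% of all genes under the Erk-/- label and 20.6% in wild type. Clip1, a microtubule plus-end protein, had 7.34 FPKM in the MII library labelled Erk-/-, was listed at 0 in wild-type MII, and had 32.7 and 28.5 FPKM in Erk-/- and wild-type GV. Pcnt, the pericentrin scaffold gene, had 70.3, 48.3, 44.0 and 48.8 FPKM and was past 2-fold in no comparison.

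Of 17 pole, dynein and fibre genes, 4 were higher and 4 lower at MII under the Erk-/- label, and 3 higher and 6 lower in wild type, where median-of-ratios scaling turned this to 7 higher and 6 lower. The lower genes were 23.5% and 35.3% of the list, against 35.6% and 49.6% of all genes. The higher genes were 23.5% under the Erk-/- label, against 22.9% of all genes, and 17.6% in wild type, against 20.6%. Mapk1ip1, described in mouse oocytes as a MAPK-interacting protein that keeps the MII spindle in shape, had 4.13 FPKM in the MII library labelled Erk-/-, 0.0706 in wild-type MII, 72.3 in Erk-/- GV and 55.5 in wild-type GV. Cdk2ap2, another spindle protein phosphorylated by MAPK in mouse oocytes, had 273, 373, 227 and 206 FPKM and no ratio past 2-fold. Dctn1, the large dynactin subunit that works with dynein and NuMA, had 4.22, 1.23, 24.2 and 25.6 FPKM, opposite in direction to Numa1.

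**Figure D5:**
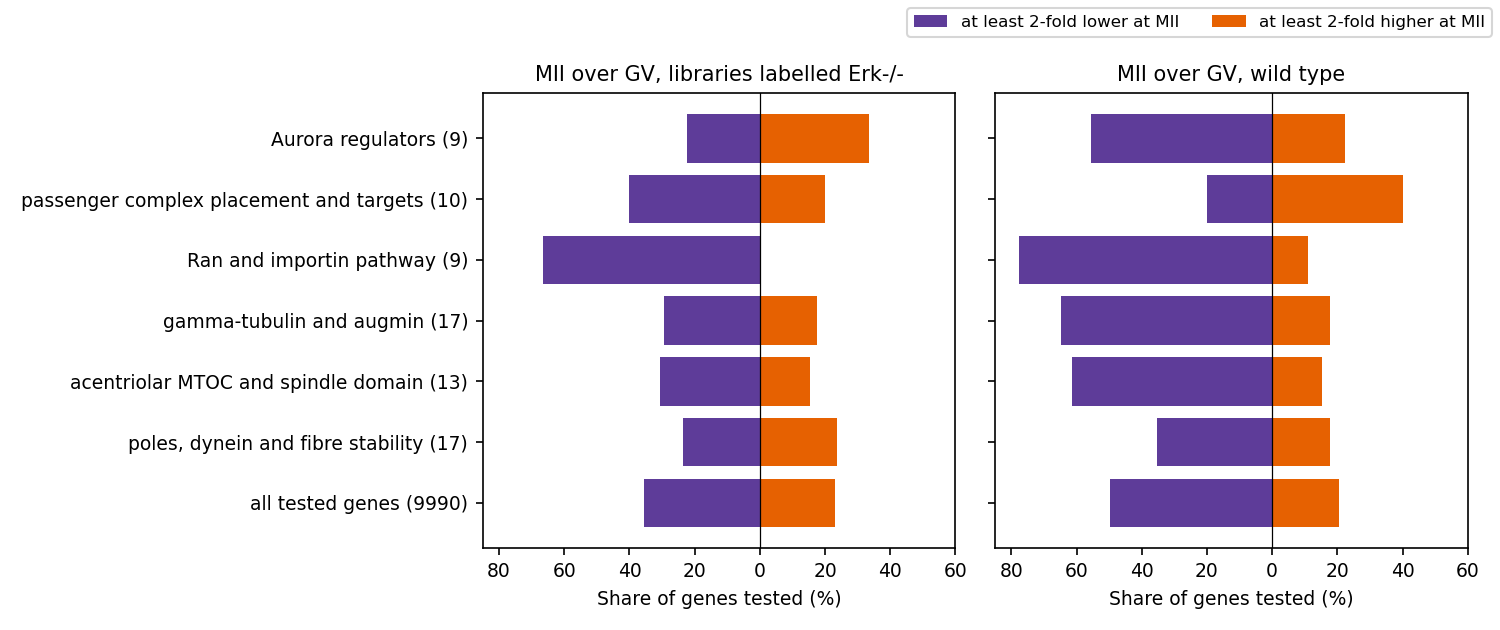
Share of tested genes of each list, and of all 9990 genes, that were at least 2-fold lower (left of 0) or higher (right of 0) at MII relative to GV, under the Erk-/- label and in wild type. Numbers of genes tested stand in brackets. The Ran and importin list has the longest lower bars (6 and 7 of 9 genes), and the bars of all genes reach 35.6% and 49.6% lower. Values are on the deposited scale; with median-of-ratios scaling the pole list in wild type has 7 higher and 6 lower.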

How the data were processed

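The authors deposited FPKM per gene for each library, with a lower and an upper bound, per the file headers. CASAVA 1.8, TopHat and mouse build mm9 are named in the submitters' processing notes. The program that computed FPKM, the level of its bounds, the strand setting and the treatment of multiply mapped fragments are not stated there. Counts are not given, so depth is unknown and no counting interval is printed. The half-width of the bounds, as a median over the 10 genes, was 4.49% to 6.81% of the value by library. A value can lie above its own upper bound (1 to 3 of the 10 genes per library, from among Aurka, Cdca8 and Tacc3), and no bounds are quoted for those.

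From these values, the rows of 260 repeated symbols were summed, and log2((FPKM + 1)/(FPKM + 1)) was taken, and genes averaging 1 FPKM or more were counted. Folds are plain FPKM ratios. Starts in mm9 count from 1. With 1 library per group there is no replicate error and no test. The calculation was tested on simulated data without noise, in which few genes changed, equally in both directions. That checks the arithmetic and does not test the scaling where many genes change, as in these libraries. Genes and lists were chosen with earlier results of these data known. All 10 genes are described. List genes were named for the largest absolute ratios at 5 FPKM or more, up to 3 a list and comparison. Not every gene that met this rule is described. Plk1, Pcnt, Cdk2ap2 and Prc1 were chosen after their values were seen. Sequences come from GENCODE M21 transcripts (GRCm38). No coordinates were converted between builds. Python 3.11.15, pandas 2.3.3 and numpy 2.4.6 were used.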

Additional observations from a re-analysis of the deposited data

Results flagged for a closer look

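For 5 of the 10 genes a ratio had opposite signs in the groups compared, with 1 library behind each value, so the differences were not tested. Aurka had a log2 ratio of MII over GV of 0.32 under the Erk-/- label and -0.84 in wild type, a difference of 1.16, and the same 1.16 separates the genotype ratios at MII (0.25) and GV (-0.90). Aurkb had 2.54 in the libraries labelled Erk-/- and -0.12 in wild type, a difference of 2.66, which is also that between its genotype ratios at MII (0.93) and GV (-1.73). For each gene this equality follows from the arithmetic and is not a separate result. The genotype ratio of Aurkc was -0.38 at MII and 0.42 at GV, a difference of -0.79. That of Incenp was 0.05 at MII and -0.45 at GV, a difference of 0.50, and that of Tacc3 was 1.92 at MII and -0.18 at GV, a difference of 2.10. The wild-type maturation ratio of Aurka was -0.02 with median-of-ratios scaling and 0.03 with upper-quartile scaling, and its difference of 1.16 became 0.54 and 0.70. With median-of-ratios scaling the genotype ratios of Aurka (-0.28) and Incenp (-0.46) at MII were below 0, as at GV, and the maturation ratios of Aurkb were 2.52 under the Erk-/- label and 0.51 in wild type, so these opposite signs rest on the deposited scale.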

How the results depend on the processing

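No paired analysis was possible because the labels give no replicate numbers and each group has 1 library, which also leaves no replicate to omit. Counts over the 10 genes stayed within 1.5 times the reported count in 77 of 100 cases. Some of these cases could not differ. Taking 1 row per symbol changes nothing, since each of the 10 genes has 1 row. Lifting the filter on low values changes nothing either, since all 10 averaged at least 1 FPKM. With median-of-ratios scaling the lower genes numbered 1 in each maturation comparison, the genotype comparison at MII gave 1 higher and 2 lower, and the maturation difference 2 positive and 2 negative. Upper-quartile scaling gave 1 lower in each maturation comparison, 2 lower between genotypes at MII, and 2 positive and 1 negative differences. A pseudocount of 5 left 1 gene lower at MII in the libraries labelled Erk-/- and 0 lower between genotypes at GV, and a mean of at least 10 FPKM also gave 0 there, since it drops Aurkb. A 1.5-fold rule gave 2 lower between genotypes at MII, 2 lower at GV and 1 negative difference. A 3-fold rule gave 3 higher at MII in the libraries labelled Erk-/- with 1 lower, 3 higher in wild type, 1 higher between genotypes at MII and 2 positive differences. Asking for 2-fold between the nearer bounds left 1 lower in the libraries labelled Erk-/-. Of 250 single values (2 other pseudocounts, both scalings, 1 row per symbol), 13 dropped below 2-fold and 8 passed it. Another 28 stayed below it but moved by more than the half-widths of the log2 bounds, summed over the libraries compared. The remaining 201 did none of these. The 201 include the 50 values with 1 row per symbol, which could not change. No value past 2-fold changed sign. Signs changed in 7 of 50 values with each scaling, for log2 ratios no larger than 0.84. The causes were not tested. Single libraries and unknown depth limit all values.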

Other observations

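Several pathway genes outside the 10 were higher in Erk-/- GV than in wild-type GV while being alike or lower in the MII library labelled Erk-/-. Plk4, the kinase of organising centre assembly, had 64.2 FPKM in the MII library labelled Erk-/-, 96.0 in wild-type MII, 42.0 in Erk-/- GV and 11.2 in wild-type GV. Rcc1 had 3.05-fold and the Mis12-complex gene Dsn1 2.11-fold the wild-type level at GV. In the maturation difference, these gave -2.40 for Plk4, -1.89 for Rcc1 and -1.76 for Dsn1, and -1.56 for Prc1, the midzone bundler, against a median of 0.61 over the 75 pathway genes tested. These genes were singled out after their values were seen.

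Mzt2, a γ-tubulin complex gene, had the most negative difference named, -6.12, with 1.08 FPKM in the MII library labelled Erk-/-, 14.2 in wild-type MII, 9.49 in Erk-/- GV and 0.109 in wild-type GV. Kif11, the motor that pushes spindle poles apart, had 19.3, 17.8, 3.31 and 12.1 FPKM in the same libraries, so the Erk-/- GV library alone was low. Gadd45a, a stress gene whose protein can restrain Aurora A, was listed at 0 in Erk-/- GV and had 5.96 FPKM in wild-type GV.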
